A study of Mus musculus with 12 samples.

Results

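The Cyp3a genes of the mouse were followed from the embryonic hepatoblast to the hepatocyte. The 9 genes are Cyp3a11, Cyp3a13, Cyp3a16, Cyp3a25, Cyp3a41a, Cyp3a41b, Cyp3a44, Cyp3a57 and Cyp3a59, taken by symbol from a list of named genes and matched to the Ensembl identifiers of the count table, 9 of the 53715 genes listed there. 7 of them had more than 10 counts in any library and were among the 17779 genes tested. Cyp3a41a, with 7 counts at most, and Cyp3a41b, with 2 at most, were not tested. RNA was sequenced from 4 biological replicates in each of 3 groups of the strain C57BL/6JOlaHsd. Hepatoblasts were taken at E14.5 by magnetic sorting for the surface protein Dlk1 from pools of embryonic livers whose sex the labels do not give. Diff. hepatocytes were such E14.5 hepatoblasts after 4 days of culture on fibronectin, in a medium that held dexamethasone, a synthetic glucocorticoid, and Matrigel. Mature hepatocytes came from adult male mice of 8 to 12 weeks by collagenase perfusion and were not cultured. Each hepatoblast and Diff. library held both Xist, an RNA of female cells, and RNA of Y-linked genes, and so held cells of both sexes. Culture, stage, way of isolation and sex differ together between the Diff. and mature hepatocytes, so that these cannot be told apart there. Time in culture, the medium and differentiation differ together between Diff. hepatocytes and hepatoblasts. Stage, way of isolation and sex differ together between mature hepatocytes and hepatoblasts. These cannot be told apart in those comparisons either.

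CYP3A enzymes are cytochrome P450 monooxygenases of the endoplasmic reticulum that oxidize steroids, bile acids and many drugs. They take electrons from cytochrome P450 oxidoreductase and carry a heme group. In the liver their genes are controlled by the nuclear receptors PXR and CAR, which sense foreign compounds, together with HNF4A, the glucocorticoid receptor and growth hormone. The set of Cyp3a genes in use changes between fetal and adult liver. In mice Cyp3a16 is known as a fetal gene, Cyp3a11 as the main adult gene, and Cyp3a41a, Cyp3a41b and Cyp3a44 as genes of adult females.

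On GRCm38, 8 of the 9 genes lie in 1 cluster on chromosome 5 that spans 0.768 Mb, from Cyp3a57 (chr5:145345279-145390926) to Cyp3a59 (chr5:146079257-146113287). Both of these outer genes lie on the plus strand and the 6 between them on the minus strand. Their order is Cyp3a57, Cyp3a16, Cyp3a41b, Cyp3a41a, Cyp3a44, Cyp3a11, Cyp3a25 and Cyp3a59, with the pseudogene Cyp3a63-ps between Cyp3a41b and Cyp3a41a. Cyp3a13 (chr5:137892932-137921619, minus strand) lies apart from them, 7.424 Mb from the start of Cyp3a57. All 9 are annotated as protein coding. By coding sequence the genes fall into groups. Cyp3a11, Cyp3a16, Cyp3a41a, Cyp3a41b and Cyp3a44 share 92.39% to 99.87% of their coding bases with each other, and Cyp3a25, Cyp3a57 and Cyp3a59 share 93.9% to 97.48%. Between these groups the identity was 74.09% to 76.08%, and Cyp3a13 shared 74.69% to 76.54% with any other member. Cyp3a41a and Cyp3a41b differ at 2 of 1512 coding bases.

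The sequence before the transcription start follows the same groups. The 250 bases before the start of 6 members are shown from 5′ to 3′ in the direction of the gene. They are shown because members of the cluster with nearly the same promoter had different expression patterns, as in Cyp3a16 and Cyp3a44. Capitals mark exact matches on either strand to 3 motifs, which were chosen with the sequences in view: TGTTTAC, the core of the forkhead (FOXA) motif, AGGTCA, the half-site of nuclear receptors, or its reverse complement TGACCT, and CAAAGTCCA, a form of the HNF4A motif. Sequences and starts are from RefSeq (GRCm38.p6). All 9 genes have an entry there, and the start of Cyp3a11 used here lies inside the GENCODE gene, which has a longer transcript. For Cyp3a25, 2 promoters are listed there, and the first listed was used.
Cyp3a16, chr5:145469724-145469973, minus strand: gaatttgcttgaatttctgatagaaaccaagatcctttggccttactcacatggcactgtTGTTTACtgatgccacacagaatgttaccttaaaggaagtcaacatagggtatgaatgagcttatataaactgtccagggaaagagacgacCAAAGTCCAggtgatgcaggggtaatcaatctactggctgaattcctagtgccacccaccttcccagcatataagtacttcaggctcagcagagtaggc
Cyp3a44, chr5:145805875-145806124, minus strand: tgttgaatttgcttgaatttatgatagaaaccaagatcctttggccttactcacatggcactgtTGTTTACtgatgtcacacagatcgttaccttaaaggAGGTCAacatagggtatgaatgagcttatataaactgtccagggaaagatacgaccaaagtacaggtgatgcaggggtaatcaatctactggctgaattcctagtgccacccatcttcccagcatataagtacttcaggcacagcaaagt
Cyp3a11, chr5:145879855-145880104, minus strand: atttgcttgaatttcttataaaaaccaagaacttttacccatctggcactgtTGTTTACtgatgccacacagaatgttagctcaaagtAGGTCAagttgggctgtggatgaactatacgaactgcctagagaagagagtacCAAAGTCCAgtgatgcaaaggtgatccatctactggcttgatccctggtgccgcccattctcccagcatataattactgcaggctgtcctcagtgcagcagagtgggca
Cyp3a25, chr5:146009619-146009868, minus strand: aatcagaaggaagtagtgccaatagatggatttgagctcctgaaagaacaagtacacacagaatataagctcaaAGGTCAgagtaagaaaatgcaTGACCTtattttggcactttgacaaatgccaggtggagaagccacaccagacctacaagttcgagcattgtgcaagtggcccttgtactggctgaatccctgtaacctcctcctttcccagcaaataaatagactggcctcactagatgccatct
Cyp3a59, chr5:146079008-146079257, plus strand: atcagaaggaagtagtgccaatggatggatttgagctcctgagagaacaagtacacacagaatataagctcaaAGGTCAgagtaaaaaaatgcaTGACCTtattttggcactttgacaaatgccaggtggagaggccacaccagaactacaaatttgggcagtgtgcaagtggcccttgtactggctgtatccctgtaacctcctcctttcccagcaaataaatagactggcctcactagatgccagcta
Cyp3a57, chr5:145345019-145345268, plus strand: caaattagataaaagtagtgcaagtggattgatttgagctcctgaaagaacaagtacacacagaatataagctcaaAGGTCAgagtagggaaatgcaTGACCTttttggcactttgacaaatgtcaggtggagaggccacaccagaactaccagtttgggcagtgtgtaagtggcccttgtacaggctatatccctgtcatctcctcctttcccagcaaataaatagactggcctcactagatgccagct

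Cyp3a16 and Cyp3a44 differed at 10 of 246 aligned promoter bases, and Cyp3a25 and Cyp3a59 at 11 of 249. Cyp3a41a and Cyp3a41b differed at 1 of 250. Cyp3a11 was 80.9% to 83.3% identical to the other genes of its group. Cyp3a13 reached at most 56.7% identity with any member. TGTTTAC was found in 5 of the 9 promoters (Cyp3a11, Cyp3a16, Cyp3a41a, Cyp3a41b and Cyp3a44) and in 3.09% of the 27025 promoters of the same length. CAAAGTCCA was found in 4 of 9, Cyp3a11, Cyp3a16, Cyp3a41a and Cyp3a41b, and in 0.38% of all promoters. AGGTCA was found in 5 of 9, once in Cyp3a11 and Cyp3a44 and on both strands in Cyp3a25, Cyp3a57 and Cyp3a59, against 13.84% of all promoters. None of the 3 motifs was found in this window of Cyp3a13. In Cyp3a11 the forkhead motif began 198 bases before the start, the half-site 162 and the HNF4A motif 109. In Cyp3a16 the forkhead and HNF4A motifs began 190 and 99 bases before the start, and in Cyp3a44 the forkhead motif and the half-site 186 and 150. The matches do not overlap each other. Promoters within a group are similar in sequence and are not independent cases.

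**Figure D1:**
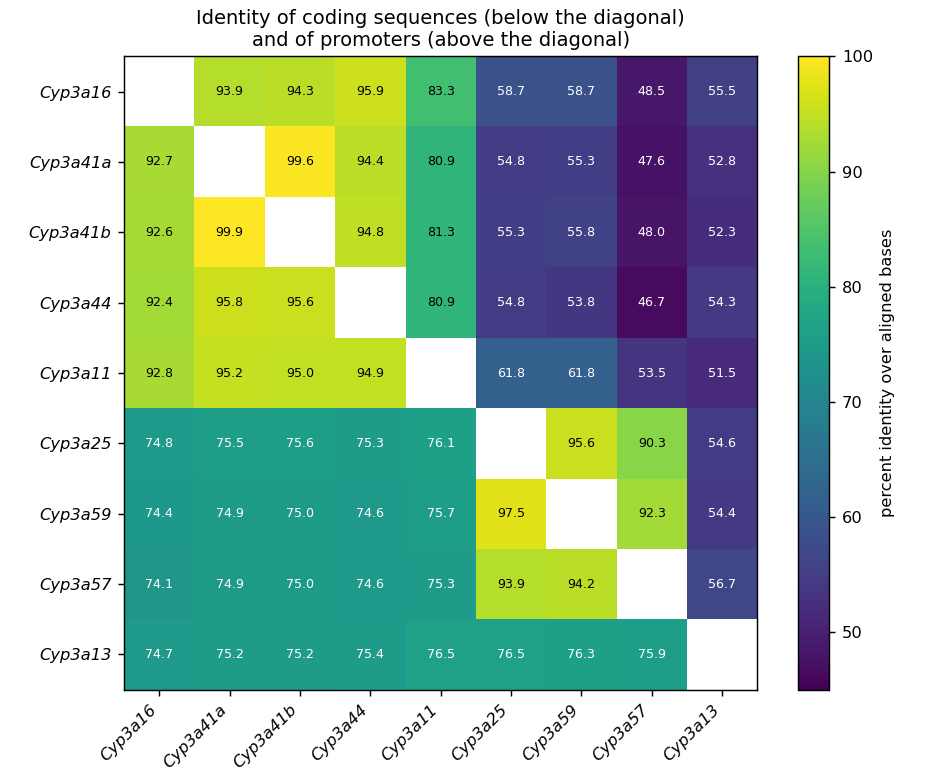
Percent identity over aligned bases between the 9 Cyp3a genes, with coding sequences below the diagonal and the 250 bases before the start above it. The 5 genes from Cyp3a16 to Cyp3a11 and the 3 genes Cyp3a25, Cyp3a59 and Cyp3a57 form blocks of high identity in both, and Cyp3a13 belongs to neither.

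The libraries held 19581551 to 25216977 counts. Levels are given as counts per 1000000 (CPM) on library sizes scaled by TMM, a method that balances the bulk of genes between libraries and whose factors ran from 0.677 in a mature library to 1.44 in a hepatoblast library. Dlk1, Afp and Gpc3, the hepatoblast markers, were lower in Diff. hepatocytes than in hepatoblasts, 3 of 3, and lowest in mature hepatocytes, and hepatocyte markers summed to 32973 to 150451 CPM over the 12 libraries. Erythroid markers summed to 272 to 2267 CPM in hepatoblasts, highest in replicate 1, and to at most 20.3 CPM elsewhere. Endothelial markers summed to 30.0 to 119 CPM in hepatoblasts, 4.58 to 9.30 in Diff. and 94.6 to 179 in mature hepatocytes, and macrophage markers to 46.2 to 173, 13.1 to 70.5 and 65.1 to 132 CPM. Bile duct markers summed to 69.95 to 213 CPM in Diff. hepatocytes against at most 40.7 CPM in the other groups. Of these, Krt19, Krt7 and Epcam were called higher in Diff. hepatocytes than in both other groups. Sox9 and Spp1 were called in neither comparison and were on average highest in mature hepatocytes, at 9.06 and 16.3 CPM. Mesenchymal markers summed to 742 to 1885 CPM in Diff. hepatocytes, 455 to 876 in hepatoblasts and at most 28.1 CPM in mature hepatocytes. Most of the sum in Diff. hepatocytes was Col1a1 and Col3a1, at 694 and 477 CPM on average. Col1a1 and Des, the latter at 15.6 against 6.12 CPM, were called higher in Diff. hepatocytes than in hepatoblasts, beside 14.9% of all tested genes. Col3a1 was on average higher there and was not called. Pdgfrb and Lrat were on average lower in Diff. hepatocytes than in hepatoblasts and were not called. In bulk RNA, fewer cells of a type and less RNA per cell cannot be told apart, and the part of these cells in the results below was not tested.

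The summed level of the Cyp3a genes was low in hepatoblasts and higher in both kinds of hepatocyte, though single members differed in direction. All 9 together summed to 28.2, 26.2, 38.1 and 50.9 CPM in hepatoblast replicates 1 to 4. In Diff. hepatocytes the sums were 1077, 1304, 1169 and 1165 CPM, and in mature hepatocytes 4614, 3514, 5005 and 5740 CPM. The groups did not overlap. The difference was 5.09 ± 0.23 (log2, SE, n = 4 and 4) between Diff. hepatocytes and hepatoblasts, 7.07 ± 0.27 between mature hepatocytes and hepatoblasts, and -1.98 ± 0.16 between Diff. and mature hepatocytes. Each had a two-sided exact permutation p of 0.0286, the smallest that 4 against 4 allows, and 0.0286 after adjustment over the 3 comparisons. The last difference rested on Cyp3a11. Without it the sums of the remaining 8 genes differed by 0.10 (log2) between Diff. and mature hepatocytes (adjusted exact permutation p = 0.543).

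Of the 7 tested members, 6 were called higher in Diff. hepatocytes than in hepatoblasts, where 14.9% of all tested genes were called higher and 14.0% lower. In either direction 28.9% of all genes were called, and 6 members and 57.5% of all genes had no overlap between the groups. The median log2 fold change of the 7 was 6.04, beside -0.01 over all tested genes. In mature hepatocytes against hepatoblasts 4 were called higher, beside 20.1% of all genes, and Cyp3a16 was called lower, beside 24.7%, or 5 members beside 44.8% in all. The groups did not overlap for 5 members and 66.0% of all genes, and the median was 3.80 beside -0.15. In Diff. against mature hepatocytes 4 were called higher, beside 20.2%, and Cyp3a11 was called lower, beside 15.6%, or 5 members beside 35.8% in all. The groups did not overlap for 6 members and 61.6% of all genes, and the median was 2.02 beside 0.09. Calls needed an adjusted p (Benjamini-Hochberg, over all tested genes) under 0.01 in edgeR's quasi-likelihood test, together with a log2 fold change above 1 or below -1. The comparisons share groups and are not independent of each other.

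**Figure D2:**
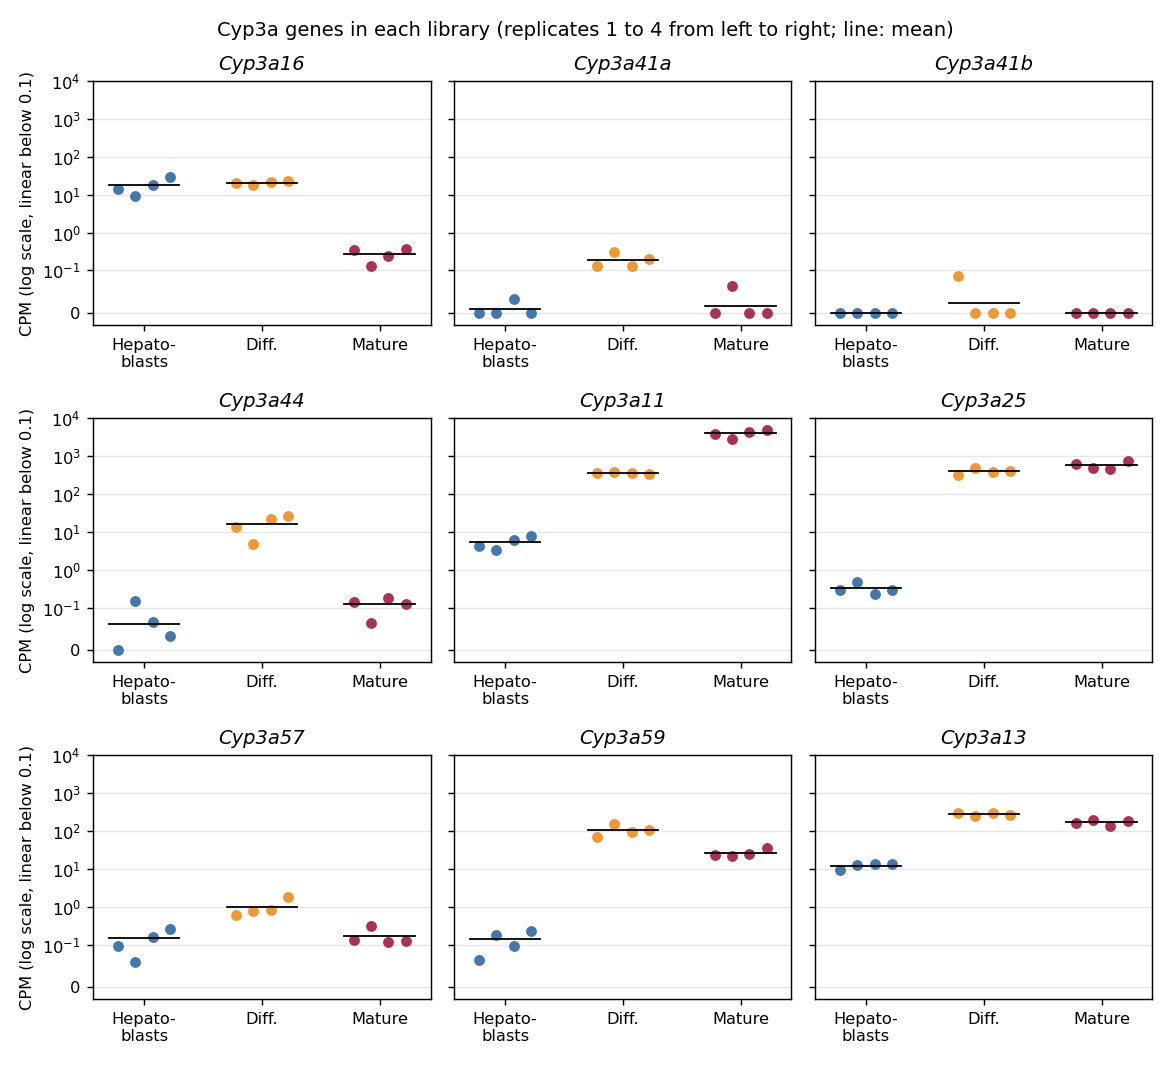
CPM of the 9 Cyp3a genes in each of the 12 libraries, on a log scale that is linear below 0.1 CPM, with replicates 1 to 4 from left to right and a line at the mean of 4. Cyp3a16 is low only in mature hepatocytes, and Cyp3a44 is above 1 CPM only in Diff. hepatocytes. The mean of Cyp3a11 is 5.43 CPM in hepatoblasts, 355 in Diff. and 3945 in mature hepatocytes.

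Cyp3a16 (ENSMUSG00000038656, chr5:145436309-145469723), the fetal gene, was present in hepatoblasts at 13.9, 9.28, 18.0 and 28.8 CPM in replicates 1 to 4. Diff. hepatocytes held 20.8, 18.3, 21.3 and 23.2 CPM, within the range of the hepatoblasts. Mature hepatocytes held 0.343, 0.128, 0.233 and 0.372 CPM, from 2 to 6 counts per library. Between Diff. hepatocytes and hepatoblasts the fold change was 0.26 ± 0.26 (log2, SE, edgeR adjusted p = 0.415), and its sign turned to -0.04 when library totals were used in place of TMM. The fold change was -6.00 ± 0.41 in mature hepatocytes against hepatoblasts and 6.26 ± 0.41 in Diff. against mature hepatocytes (edgeR adjusted p = 1.95e-08 and 2.52e-08). As summed counts, 1858 in Diff. against 17 in mature hepatocytes, the scaled ratio was 77.7, with a 95% counting interval of 48.4 to 134. Cyp3a16 was the 1 tested member that was not called between Diff. hepatocytes and hepatoblasts.

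Cyp3a11 (ENSMUSG00000056035, chr5:145854426-145879964), the main adult gene, was lowest in hepatoblasts, higher in Diff. hepatocytes and highest in mature hepatocytes. It stood at 4.32, 3.37, 6.12 and 7.89 CPM in hepatoblasts, at 350, 382, 352 and 337 CPM in Diff. hepatocytes, and at 3815, 2811, 4380 and 4774 CPM in mature hepatocytes. No group overlapped another, and Diff. hepatocytes were called higher than hepatoblasts and lower than mature hepatocytes (edgeR adjusted p = 1.79e-09 and 3.78e-08). The Diff. hepatocytes were the most even group for their level, with an SD of 19.3 CPM around a mean of 355 CPM. In mature hepatocytes Cyp3a11 was 9.51 ± 0.31 (log2, SE) above hepatoblasts (edgeR adjusted p = 2.27e-11), and leaving out 1 replicate at a time gave 9.32 to 9.73. Over all its annotated transcripts Cyp3a11 shares 1.66% of its 75-base positions with other genes. Of the 2270 positions of its protein-coding transcripts, 2187 are not shared. In hepatoblasts Cyp3a11 and Cyp3a16 had the same order of libraries, lowest in replicate 2 and highest in replicate 4. Replicate 1, which held the most erythroid RNA, was the second lowest for both.

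The ratio of Cyp3a16 to Cyp3a11 within a library does not depend on how library sizes are scaled. Per 75-base position of protein-coding transcripts that no other gene shares, its log2 was 2.11, 1.88, 1.98 and 2.29 in hepatoblasts, where Cyp3a16 was the more abundant of the pair. It was -3.64, -3.96, -3.62 and -3.44 in Diff. hepatocytes and -12.88, -13.67, -13.60 and -13.11 in mature hepatocytes, where Cyp3a16 rests on 6 counts or fewer. Over the positions of all annotated transcripts, the group means of the ratio were 3.23, -2.50 and -12.15, and the differences between groups were the same. Diff. hepatocytes differed from hepatoblasts by -5.73 ± 0.14 and from mature hepatocytes by 9.65 ± 0.22 (log2, SE, n = 4 and 4). Mature hepatocytes differed from hepatoblasts by -15.38 ± 0.21. Each exact permutation p was 0.0286, also after adjustment over the 3 comparisons. Between hepatoblasts and Diff. hepatocytes Cyp3a11 was called and Cyp3a16 was not.

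Cyp3a44 (ENSMUSG00000054417, chr5:145773983-145805874), whose promoter is closest to that of Cyp3a16 and which is known as a gene of adult females, was nearly absent from both freshly isolated groups. Its counts were 0, 5, 2 and 1 in hepatoblasts and 2, 1, 3 and 2 in the male mature hepatocytes. Diff. hepatocytes held 313, 113, 478 and 524 counts, or 13.5, 4.86, 21.2 and 25.8 CPM. Diff. hepatocytes lay above both other groups in every library. The ratio of summed counts, scaled to library size, was 251 against hepatoblasts, with a 95% counting interval of 127 to 583, and 127 against mature hepatocytes, with an interval of 64.3 to 295. edgeR gave adjusted p = 2.79e-07 and 6.48e-07. Between mature hepatocytes and hepatoblasts, with 8 counts in each group, there was no detectable difference at this depth.

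The 4 Diff. libraries differed from each other in Cyp3a44 more than in Cyp3a11 or Cyp3a16. Replicate 2 was the lowest, and it also held the most Xist, the RNA that coats the inactive X chromosome of females, and the least RNA of the Y-linked genes Ddx3y, Kdm5d, Eif2s3y and Uty. In replicates 1 to 4 of the Diff. hepatocytes Xist stood at 311, 660, 392 and 366 CPM, and the 4 Y-linked genes summed to 80.6, 30.5, 66.9 and 90.1 CPM. Hepatoblast replicate 2 stood out in the same way, with 567 CPM of Xist against 287 to 329 CPM in the others and 25.1 CPM of Y-linked RNA against 52.6 to 77.1 CPM. Xist was at most 4.73 CPM in the male mature hepatocytes. Each hepatoblast and Diff. library held Xist and Y-linked RNA. Cyp3a13 and Cyp3a16 were also lowest in Diff. replicate 2, whereas Cyp3a11, Cyp3a25, Cyp3a41a and Cyp3a59 were highest there. With 4 libraries the part of sex in these differences was not tested, and leaving out 1 replicate at a time kept the call of Cyp3a44 in Diff. hepatocytes against hepatoblasts, with a log2 fold change of 7.51 to 8.74.

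Cyp3a41a (ENSMUSG00000075551, chr5:145694049-145720136) and Cyp3a41b (ENSMUSG00000075552, chr5:145558664-145584730), known as genes of adult females, cannot be measured well here. They share 1809 of their 75-base positions with each other, and 95.3% of those of Cyp3a41a and 90.9% of those of Cyp3a41b occur in another gene, so that few reads can be assigned to either. Cyp3a41a had 0, 0, 1 and 0 counts in hepatoblasts, 3, 7, 3 and 4 in Diff. hepatocytes and 0, 1, 0 and 0 in mature hepatocytes. The scaled ratio of Diff. hepatocytes to hepatoblasts was 23.9, with a 95% counting interval of 3.75 to 1001. Cyp3a41b had 2 counts in Diff. replicate 1 and 0 in the other 11 libraries, which allows up to 3 counts in each. Of the 19 counts of Cyp3a41a, 17 fell in Diff. hepatocytes.

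Cyp3a25, Cyp3a59 and Cyp3a57 form the second group by sequence. Cyp3a25 (ENSMUSG00000029630, chr5:145977194-146009618) is a gene of the adult liver. It stood at 0.290, 0.478, 0.227 and 0.298 CPM in hepatoblasts, from 7 to 16 counts. Diff. hepatocytes held 318, 489, 378 and 404 CPM and mature hepatocytes 614, 484, 460 and 748 CPM, so that the 2 kinds of hepatocyte overlapped. Cyp3a25 rose by 10.23 ± 0.28 (log2, SE) in Diff. hepatocytes and by 10.77 ± 0.28 in mature hepatocytes against hepatoblasts (edgeR adjusted p = 2.54e-11 and 4.07e-12), the largest fold change of the tested members in both comparisons. Between Diff. and mature hepatocytes its fold change was -0.54 ± 0.17 (adjusted p = 0.0144), not called, and 0.00 with library totals in place of TMM.

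Cyp3a59 (ENSMUSG00000061292) was called in all 3 comparisons and was highest in culture. Hepatoblasts held 0.0645, 0.179, 0.0971 and 0.232 CPM, from 2 to 7 counts per library. Diff. hepatocytes held 67.7, 157, 93.3 and 110 CPM and mature hepatocytes 23.9, 21.4, 25.2 and 35.01 CPM. Each Diff. library was above each mature library. The log2 fold change was 9.49 ± 0.38 (SE) in Diff. hepatocytes against hepatoblasts, 7.47 ± 0.38 in mature hepatocytes against hepatoblasts and 2.02 ± 0.23 between the 2 kinds of hepatocyte (edgeR adjusted p = 6.27e-10, 1.19e-09 and 5.6e-06). Cyp3a25 and Cyp3a59 share 265 of their 75-base positions, 12.3% of Cyp3a25 and 13.2% of Cyp3a59, and reads from these positions cannot be assigned to 1 of them.

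Cyp3a57 (ENSMUSG00000070419) stayed low throughout. It had 3, 2, 5 and 8 counts in hepatoblasts, 14, 18, 18 and 37 in Diff. hepatocytes and 2, 5, 2 and 2 in mature hepatocytes. The Diff. libraries lay above both other groups, with 0.605 to 1.82 CPM, and the other groups overlapped. The ratio of summed counts was 6.81 against hepatoblasts (95% counting interval 4.06 to 12.0) and 5.63 against mature hepatocytes (2.99 to 11.7), with edgeR adjusted p of 0.000311 and 0.00112. Leaving out 1 replicate at a time gave a log2 fold change against hepatoblasts of 2.29 to 3.17.

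Cyp3a13 (ENSMUSG00000029727), the member outside the cluster, is a gene of liver and intestine. It was the second most abundant member per length in hepatoblasts, at 9.45, 12.7, 13.4 and 13.5 CPM. Diff. hepatocytes held 307, 252, 302 and 263 CPM and mature hepatocytes 160, 198, 140 and 183 CPM. No group overlapped another. Cyp3a13 rose by 4.52 ± 0.15 (log2, SE) in Diff. hepatocytes and by 3.80 ± 0.15 in mature hepatocytes against hepatoblasts (edgeR adjusted p = 1.42e-10 and 1.18e-10). It was 0.72 ± 0.13 higher in Diff. than in mature hepatocytes (adjusted p = 0.00032), which is under the fold change threshold. Library totals in place of TMM gave 1.25, past that threshold. None of its 75-base positions is shared. The span of the gene overlaps that of the processed pseudogene Gm15502 on the same strand, and overlap of their exons was not tested.

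**Figure D3:**
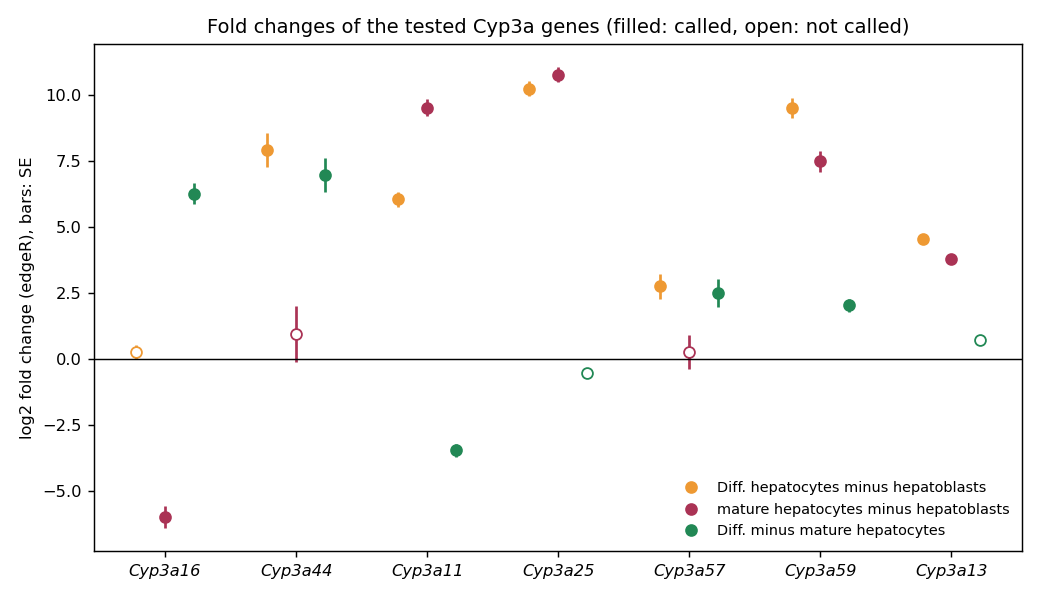
Log2 fold changes from edgeR with SE bars for the 7 tested Cyp3a genes in the 3 comparisons (filled points called, open points not called). Cyp3a16 is the 1 gene below 0 in mature hepatocytes against hepatoblasts, and Cyp3a11 is the 1 gene called below 0 in Diff. against mature hepatocytes.

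Per length, a different member led the Cyp3a RNA in each of the 3 groups. Levels were divided by the 75-base positions of protein-coding transcripts that no other gene shares, which supposes that reads matching several genes were not counted. In hepatoblasts Cyp3a16 was first, with 58.1% ± 8.4 (SD, n = 4) of the summed level, before Cyp3a13 with 25.4% ± 7.8 and Cyp3a11 with 13.8% ± 0.81. The levels of Cyp3a13 and Cyp3a11 overlapped between libraries, though their shares of the sum did not. Each other gene was at 2.21% or less of the sum in every library. In Diff. hepatocytes Cyp3a25 led with 38.8% ± 3.1, before Cyp3a11 with 28.6% ± 2.1, Cyp3a13 with 17.3% ± 3.2 and Cyp3a59 with 10.8% ± 2.7. The levels of Cyp3a25 and Cyp3a11 did not overlap between libraries, and those of Cyp3a13 and Cyp3a59 did. Cyp3a16 made up 2.28% ± 0.36 there and Cyp3a44 1.75% ± 0.98, and these overlapped too. In mature hepatocytes Cyp3a11 made up 81.7% ± 3.3, Cyp3a25 14.8% ± 2.5, Cyp3a13 2.80% ± 0.94 and Cyp3a59 0.702% ± 0.071, with no overlap between neighbours in this order.

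**Figure D4:**
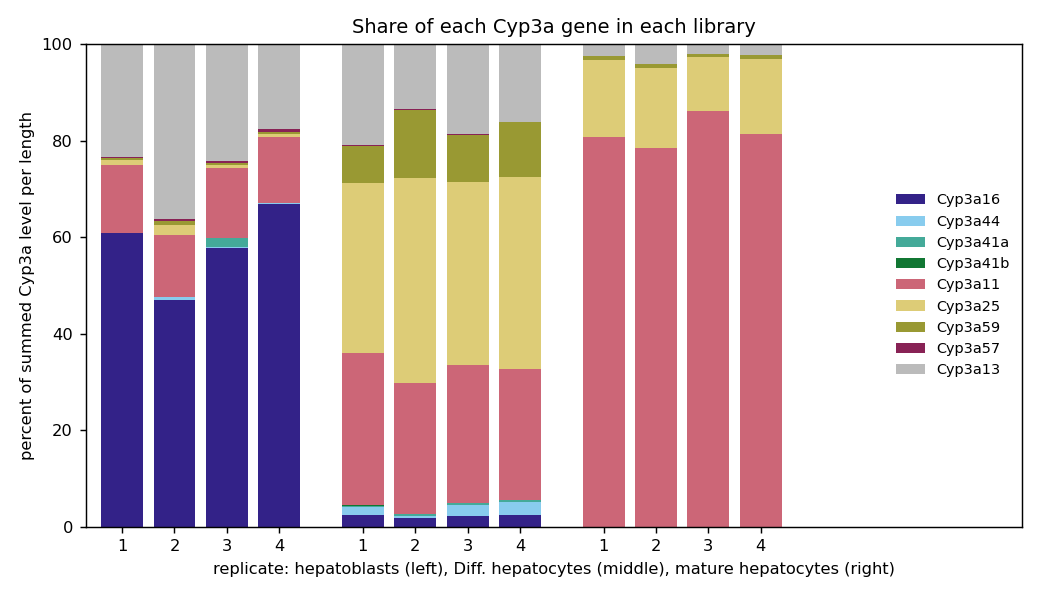
Percent of the summed per-length level of the 9 Cyp3a genes taken by each gene, one bar per library. Cyp3a16 takes 46.9% to 66.9% in hepatoblasts, Cyp3a25 takes 35.1% to 42.4% in Diff. hepatocytes and Cyp3a11 takes 78.4% to 86.2% in mature hepatocytes.

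The pseudogene Cyp3a63-ps, which is no member, had 19, 10, 16 and 46 counts in hepatoblasts, 130, 56, 139 and 162 in Diff. hepatocytes and 0, 0, 0 and 1 in mature hepatocytes. Like Cyp3a44 it was lowest in Diff. replicate 2, and the pair share 81 of their 75-base positions, 7.39% of the pseudogene's. Unlike Cyp3a44 it was counted in each hepatoblast library. Cyp3a61-ps1 had 0 counts throughout.

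Genes next to the cluster were read in the same way. Of the 10 nearest tested protein-coding genes, 5 on each side, Gpr12 was called lower in Diff. hepatocytes than in hepatoblasts and the other 9 were not called, beside 28.9% of all tested genes called, and the median was 0.06. In mature hepatocytes against hepatoblasts Zkscan14 was called higher and Wasf3 lower, beside 44.8% of all genes called, and the median was 0.07. In Diff. against mature hepatocytes Wasf3 was called higher and Gpr12 lower, beside 35.8%. Around Cyp3a13, of 10 neighbours 3 were called higher in each hepatocyte group than in hepatoblasts, Azgp1, Gjc3 and Zkscan1, beside 14.9% of all genes in Diff. and 20.1% in mature hepatocytes. Zcwpw1 and Pilrb1 were called lower in Diff. hepatocytes than in hepatoblasts, beside 14.0%. Azgp1, a secreted zinc-binding glycoprotein, went from 5.30 ± 1.55 CPM in hepatoblasts to 1158 ± 126 in Diff. and 1724 ± 132 in mature hepatocytes (SD, n = 4).

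The 22 regulators of Cyp3a genes were all tested. Of 22, 6 were called higher and 1 lower in Diff. hepatocytes against hepatoblasts, beside 14.9% and 14.0% of all genes, with a median log2 fold change of 0.46. In mature hepatocytes 14 were called higher and 1 lower, beside 20.1% and 24.7%, with a median of 1.59. Between the 2 kinds of hepatocyte 13 were called lower in Diff. hepatocytes and 1 higher, beside 15.6% and 20.2%, with a median of -1.25. PXR itself (Nr1i2) was present in hepatoblasts at 47.1 ± 8.7 CPM (SD, n = 4), at 64.5 ± 5.3 in Diff. hepatocytes and at 121 ± 19 in mature hepatocytes. Its fold change of 0.45 ± 0.14 (log2, SE) in culture was not called (edgeR adjusted p = 0.0147). CAR (Nr1i3) rose from 0.824 ± 0.18 to 5.18 ± 1.1 CPM in culture and stood at 50.2 ± 14 CPM in mature hepatocytes. RXRA (Rxra), the partner of both receptors, was called higher in Diff. hepatocytes, and so were Cebpb, Ppara, Nr1h4 and Nr0b2. Hnf4a stood at 409, 619 and 1087 CPM on average in the 3 groups, and the glucocorticoid receptor gene Nr3c1 at 57.4, 63.2 and 126 CPM. Both were called higher in mature hepatocytes against hepatoblasts and not called in the other comparisons. In Diff. against mature hepatocytes their log2 fold changes were -0.81 and -0.99 (edgeR adjusted p = 0.00105 and 1.87e-07), within the fold change threshold. The regulator called lower in culture was Hlf, a clock-controlled transcription factor, and in mature hepatocytes it was Vdr, the vitamin D receptor, which was under 1 CPM in each group on average.

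Most other targets of PXR and CAR were also higher after culture. Of 15, 11 were called higher in Diff. hepatocytes against hepatoblasts, beside 14.9% of all tested genes, and the other 4 were not called. Among those called, Slco1a4, Cyp2c55, Cyp2c29 and Gsta1 were low in Diff. hepatocytes too, at means of 0.345, 0.439, 0.765 and 1.33 CPM. Leaving out 1 replicate at a time gave 9 to 11 calls. The median log2 fold change was 3.86, or 3.79 with Gsta1, which had 0 counts in hepatoblasts, at its lower bound. In mature hepatocytes 13 were called higher and 2 lower, beside 20.1% and 24.7%, with medians of 5.70 and 4.92. Cyp2b10, a classic target of CAR, stood at 0.256 ± 0.067 CPM in hepatoblasts, 192 ± 35 in Diff. and 7.92 ± 5.7 in mature hepatocytes (SD, n = 4). Akr1b7, an aldo-keto reductase, stood at 6.05 ± 1.9, 144 ± 20 and 0.382 ± 0.16 CPM. Both, with the drug pump Abcb1a, were called higher in Diff. than in mature hepatocytes, beside 20.2% of all genes. Another 10 of the 15 were called lower, beside 15.6%. Among these, Cyp2c29 had 0.765 ± 0.23 CPM in Diff. and 1552 ± 387 CPM in mature hepatocytes.

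**Figure D5:**
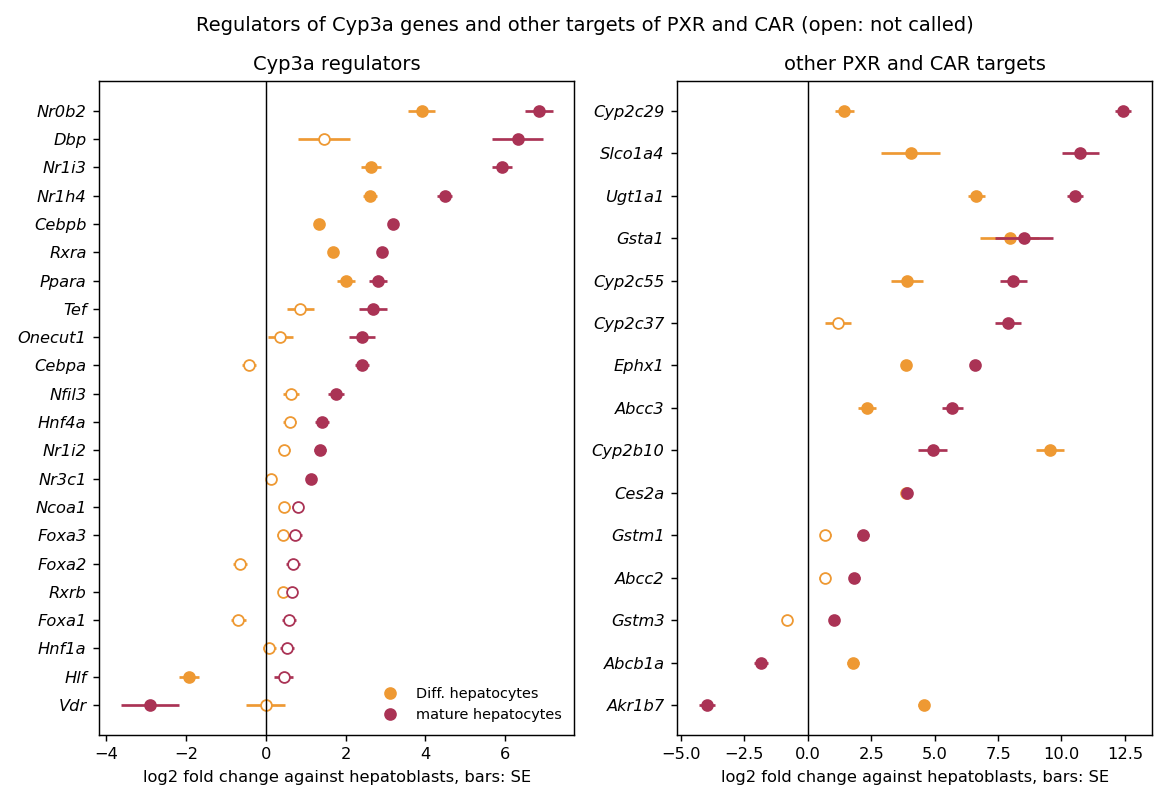
Log2 fold changes against hepatoblasts from edgeR, with SE bars, for the 22 regulators of Cyp3a genes and 15 other targets of PXR and CAR, in Diff. and in mature hepatocytes (open points not called). Nr0b2 and Nr1i3 lie farther right in mature hepatocytes, whereas Cyp2b10, Abcb1a and Akr1b7 lie farther right in Diff. hepatocytes, and the values of Gsta1 depend on the prior count because it had 0 counts in hepatoblasts.

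Glucocorticoid-induced genes were measured because the medium held dexamethasone. Of 9, 6 were called higher and 2 lower in Diff. hepatocytes against hepatoblasts, beside 14.9% and 14.0% of all genes, with a median of 1.64. Tat, tyrosine aminotransferase, went from 2.33 ± 0.26 to 725 ± 145 CPM in culture and stood at 2412 ± 254 CPM in mature hepatocytes, which were not cultured. Zbtb16, Sgk1, Klf9, Fkbp5 and Tsc22d3 rose in culture as well. The pair that fell, Mt1 and Mt2, encodes metallothioneins, which metals induce too. In Diff. against mature hepatocytes 5 were called higher, Fkbp5, Sgk1, Zbtb16, Mt1 and Mt2, beside 20.2% of all genes. The 2 called lower were Tat and Klf9, beside 15.6%. Sgk1 and Fkbp5, at 184 ± 24 and 270 ± 25 CPM in Diff. hepatocytes, were not called between the 2 freshly isolated groups.

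Genes under growth hormone control and genes that differ by sex in the liver were measured because the sexes differ in their Cyp3a genes. Of 20 listed, 18 were tested. Against hepatoblasts, 5 were called higher and 6 lower in Diff. hepatocytes, beside 14.9% and 14.0% of all genes, and the median was 0.12. Against mature hepatocytes, 3 were called higher and 10 lower, beside 20.2% and 15.6%, and the median was -3.94. The growth hormone receptor gene Ghr stood at 73.8 ± 14 CPM in hepatoblasts, 68.3 ± 1.3 in Diff. and 724 ± 62 in mature hepatocytes (SD, n = 4). Its target Igf1 stood at 7.70 ± 3.2, 2.64 ± 1.5 and 897 ± 39 CPM. The male-biased genes Mup20, Cyp4a12a and Hsd3b5 were at 4.49, 0.241 and 0.158 CPM on average in Diff. hepatocytes and at 3098, 349 and 370 CPM in mature hepatocytes. Of the female-biased genes, Sult2a1, a sulfotransferase, stood at 56.7 ± 11 CPM in Diff. hepatocytes and at 0.108 ± 0.14 CPM in mature hepatocytes, and Cyp2a4 was also called higher in Diff. hepatocytes, whereas Cyp2b9 was at 0.259 ± 0.14 CPM there and was not called in any comparison.

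The supply of electrons and heme to P450 enzymes was also measured. Of 7 genes, 2 were called higher and 1 lower in Diff. hepatocytes against hepatoblasts, beside 14.9% and 14.0% of all genes. The median was 0.70 (log2). In mature hepatocytes against hepatoblasts 6 were called higher and 1 lower, beside 20.1% and 24.7%, and the median was 2.20. Por, cytochrome P450 oxidoreductase, rose from 110 ± 14 to 820 ± 55 CPM in culture (edgeR adjusted p = 7.38e-07) and stood at 505 ± 221 CPM in mature hepatocytes (SD, n = 4). Alas1, the first enzyme of heme synthesis, rose from 30.1 ± 3.5 to 215 ± 25 CPM in culture and stood at 993 ± 630 CPM in mature hepatocytes. Cyb5a, Cyb5b, Cyb5r3 and Pgrmc1 were called higher in mature hepatocytes and not in Diff. hepatocytes. Hmox1, which breaks heme down, fell in both.

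For each member with a mean of at least 10 CPM in any group, the 3 genes outside the family with the most similar profile were found among 9752 genes, by Pearson's r of log2 CPM over the 12 libraries, which fall into 3 groups. Cyp3a11 was most like Rdh7 and Fbp1 (r = 0.998 each), of which Fbp1 is a gluconeogenic enzyme that went from 2.42 to 165 and 1450 CPM. Cyp3a16 was most like Zswim9, Map2 and Igdcc4 (0.989 to 0.992), of which Igdcc4 had 117, 123 and 0.327 CPM. Cyp3a25 was most like Sel1l3, Smad9 and Azgp1 (0.996 to 0.997). Cyp3a13 was most like the serpins Serpina3n and Serpina3m and Derl1 (0.996 to 0.997), and Cyp3a59 most like Dmxl2, Cp and Serpina3n (0.994 to 0.996), of which Cp encodes ceruloplasmin. Cyp3a44 was most like Ctsl, Vmn2r3 and Sgk1 (0.985 to 0.988), of which Vmn2r3 had 0.0156, 99.4 and 0.0779 CPM. Among the members themselves r was highest between Cyp3a13 and Cyp3a59 (0.990), across the 2 loci, and lowest between Cyp3a11 and Cyp3a16 (-0.717).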

How the data were processed

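The authors deposited raw counts for each gene in 12 libraries of poly(A) RNA. The authors mapped 75-base single reads to GRCm38 and counted them on Ensembl release 92 genes with STAR 2.5.2b, after FastQC 0.11.2. The preparation is described as strand-specific, and the strand setting of the counts is not given in the sources used here. Positions and transcripts were taken from GENCODE M21, which held 53620 of the 53715 identifiers. 75-base positions found in transcripts of another gene were counted as shared.

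The study's filter (over 10 counts in 1 or more libraries) was kept. With edgeR 4.0.16 (R 4.3.3), TMM and 1 quasi-likelihood fit of the 3 groups were used, with the study's thresholds of 0.01 for the adjusted p and 1 for the log2 fold change. A prior count of 2 was added for log2 CPM. The sum and the ratio (0.5 added to each count) were tested by two-sided exact permutation over 70 assignments. The edgeR fit was tested on simulated data for Diff. hepatocytes against hepatoblasts: of 16775 genes, 200 changed by a log2 of 2, 180 of these and 1 unchanged gene were called. DESeq2 1.42.0, other scalings, filters and fits without each replicate were alternatives. Counting intervals (exact binomial, 95%) and the floor of 3 counts cover counting error only. Promoters and coding sequences were aligned with MAFFT 7.526. Each library was given its group by its label. All 9 members, the listed genes that were called or that a list is about, and the 3 most similar genes of each member were named, except 1 gene that is not reported here. Members, lists and motifs were chosen with earlier results of these data known. The libraries are labelled biological replicates, and the labels name no batch.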

Additional observations from a re-analysis of the deposited data

Results flagged for a closer look

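In 5 of 31 groups of 4 libraries, 1 library lay far from the other 3 by Dixon's test at the 95% level. Chance flags about 1 in 20 such groups, or 1.55 of 31, and a group in which 3 libraries have nearly the same few counts meets the criterion easily. Cyp3a57 reached 1.82 CPM (37 counts) in Diff. replicate 4, where the other 3 held 14 to 18 counts, and 0.321 CPM (5 counts) in mature replicate 2, where the others held 2 each. Cyp3a41a had 1 count in hepatoblast replicate 3 (0.0324 CPM) and 1 in mature replicate 2 (0.0642 CPM), with 0 in the other libraries of these groups. Cyp3a41b had 2 counts in Diff. replicate 1 (0.0865 CPM) and 0 elsewhere. None of the other 6 members, nor the summed level or the ratio of Cyp3a16 to Cyp3a11, had such a library.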

How the results depend on the processing

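The number of members called was within 1.5 times under DESeq2, glmTreat, other scalings, a minimum of 1 count, fits of 8 libraries, a threshold of 0.05 on the adjusted p alone, and without each replicate (6 to 6, 5 to 5 and 5 to 5). A minimum of 10 counts in every library kept fewer members and gave 2, 2 and 1 calls in Diff. against hepatoblasts, mature against hepatoblasts and Diff. against mature hepatocytes. Of 445 alternative fold changes of single members, 433 kept their direction and side of the thresholds, 7 turned sign, 4 gained a call and 1 lost it. Those that turned sign were not called in either form: Cyp3a16 in Diff. hepatocytes against hepatoblasts (-0.04 with library totals), Cyp3a25 in Diff. against mature hepatocytes (0.00 with library totals, 0.03 without the 50 most abundant genes) and Cyp3a57 in mature hepatocytes against hepatoblasts (-0.54 and -0.38 under the same settings, -0.01 and -0.20 without hepatoblast or mature replicate 2, and -0.20 to 0.69 over all replicates left out). Library totals moved the median of all genes to -0.34, -1.0003 and 0.62 in the 3 comparisons, with 1985 genes higher and 3621 lower, 2007 and 7920, and 5500 and 1776, against 2648 and 2497, 3580 and 4391, and 3586 and 2776 with TMM. Cyp3a57 in Diff. against mature hepatocytes lost its call in glmTreat (2.48, adjusted p = 0.01). The summed level without Cyp3a11 turned from -1.98 to 0.10 between Diff. and mature hepatocytes (adjusted exact permutation p = 0.543). Without each replicate the summed differences were 4.95 to 5.27, 6.94 to 7.26 and -2.12 to -1.88, and the ratios -5.81 to -5.63, -15.52 to -15.26 and 9.53 to 9.80, each with an exact permutation p of 0.0286, the smallest that 3 against 4 allows. The ratio per position of protein-coding transcripts and the list counts under each alternative were added after seeing the data. Of 330 list counts, 11 moved by over 1.5 times, among them the regulators called in Diff. hepatocytes against hepatoblasts (16 at an adjusted p under 0.05). Same-numbered hepatoblast and Diff. libraries correlated in their deviations at 0.242, -0.037, 0.252 and 0.201 over 8524 genes. As 1 of the 4 was not over 0.1, which was asked of each, the numbers were not taken as pairs. With the replicate number as a block the calls were 6, 5 and 5, and the summed differences 5.09, 7.07 and -1.98 and the ratios -5.73, -15.38 and 9.65 were the same, with an exact sign-flip permutation p of 0.125, the smallest 4 pairs allow. Few counts limit Cyp3a57 in each group, Cyp3a25, Cyp3a44 and Cyp3a59 in hepatoblasts, and Cyp3a16 and Cyp3a44 in mature hepatocytes, and shared positions limit Cyp3a41a and Cyp3a41b.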
